A study of Mus musculus with 6 samples.

Results

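Smooth muscle cells and pericytes, together called mural cells, wrap the vessels of the heart. The 10 genes described here mark them: Rgs5, Pdgfrb, Notch3 and Cspg4, used chiefly as pericyte markers, and Tagln, Myh11, Cnn1, Smtn, Lmod1 and Synpo2, which belong to the contractile apparatus of smooth muscle. They were taken by name from a deposited table of 49585 genes, and all 10 were found there. RNA of powdered hearts was depleted of ribosomal RNA and sequenced. All mice were male, with an age of 8 or 9 weeks. The ground controls (3 libraries, GC1 to GC3) were kept at 1 g under conditions matched to those of the space station. The partial gravity mice (3 libraries, PG1 to PG3) were kept at 0.167 g on the station by a rotor spinning at 31 rpm (radius 15 cm). A strain, C57BL/6J, is named for the ground controls alone. Whether a library stands for 1 animal is not stated, so the p-values rest on the spread among libraries, which may be technical. No flight group at 1 g was used here, so gravity cannot be told apart from the rest of what differed between station and ground.

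Pericytes sit on capillaries and smooth muscle cells on larger vessels. Platelet-derived growth factor B from endothelium acts on the receptor encoded by Pdgfrb and recruits pericytes, and Notch ligands on endothelium act on Notch3, which is needed for the maturation of arterial smooth muscle. The contractile genes of smooth muscle are driven largely by serum response factor (SRF) with its partner myocardin, which bind the CArG box. In the heart, several of these genes are not limited to vessels: Synpo2 encodes a Z-disc protein that striated muscle also makes. Fewer mural cells and less RNA per mural cell cannot be told apart in RNA from a whole tissue.

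Total counts ranged from 6461213 to 8271553 per library, of which mitochondrially encoded genes took 16.3% to 18.3%. All 12 cardiomyocyte markers were detected in the labelled hearts. Levels are CPM, counts set to a common library size with TMM scaling. Fold changes are partial gravity over ground control unless called lower. The quasi-likelihood test of edgeR gave the p-values, adjusted by Benjamini-Hochberg over the 12258 genes tested, and a gene is said to have risen or fallen at an adjusted p under 0.05. The header of the deposited comparison places GC3 under partial gravity, against its own name and title. Grouped that way, 0 of the 10 genes passed edgeR (4 had an unadjusted p under 0.05).

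The mural genes did not move together. Rgs5 and Tagln rose in partial gravity, Smtn and Synpo2 fell, and Pdgfrb, Notch3, Cspg4, Myh11, Cnn1 and Lmod1 did not pass the test. All 10 genes passed the filter on low counts, so the 4 calls are out of 10, against 3.77% of all tested genes (1.56% higher and 2.21% lower). In 5 of the 10 the groups lay apart, 2 with partial gravity above and 3 below, against 20.6% of all tested genes (9.97% above and 10.6% below). The median log2 fold change was 0.082 over the 10 genes and 0.00067 over all tested genes. The count was 2 without GC1 (Rgs5 and Smtn) and 2 without GC2 (Smtn and Tagln).

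**Figure D1:**
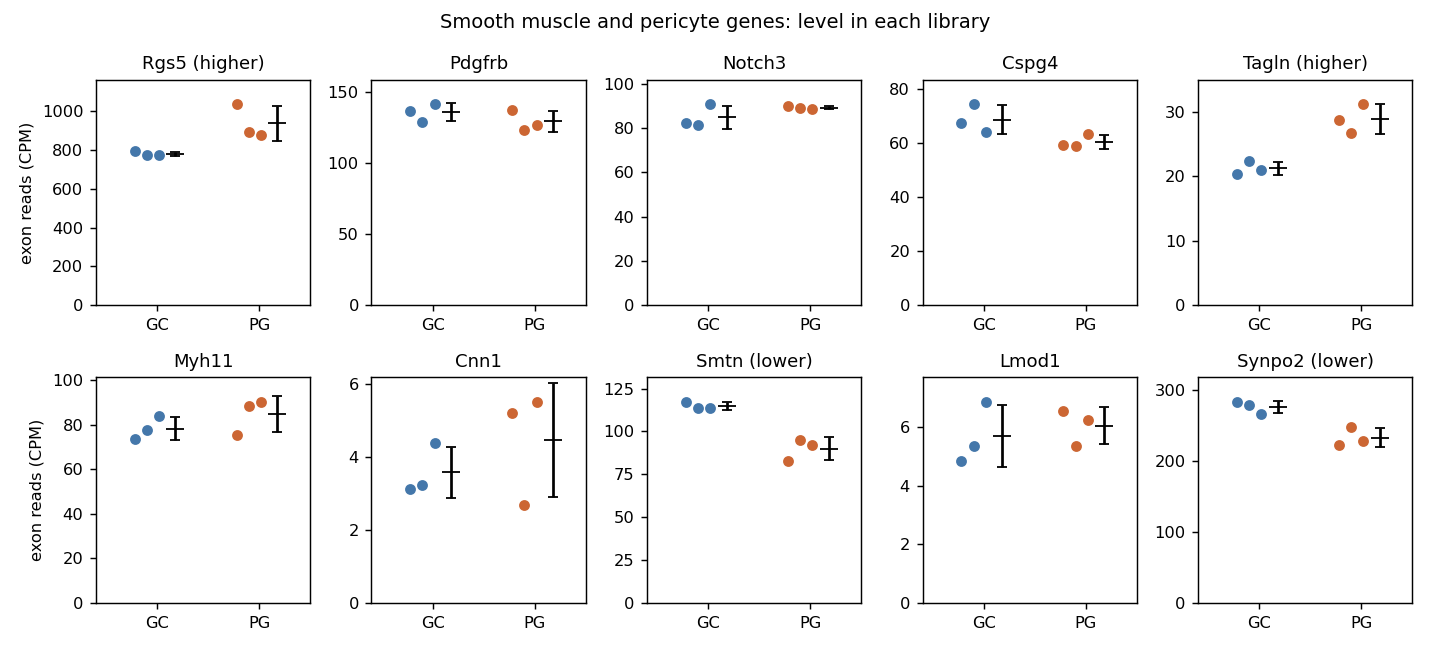
Exon reads (CPM, y axis from 0) of the 10 genes in the 3 ground control (GC, blue) and 3 partial gravity (PG, orange) libraries, with the mean and SD in black. Rgs5 and Tagln lie higher in every PG library and Smtn and Synpo2 lower, while Pdgfrb, Notch3, Myh11, Cnn1 and Lmod1 overlap between the groups.

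Among the 4 genes that passed, the RefSeq promoter table (GRCm38.p6) holds Rgs5, Smtn and Synpo2. Promoters of 7 of the 10 genes were searched in all, and those of Pdgfrb, Tagln and Myh11 were not. The 250 bases before each start are shown because these genes moved in opposite directions, and because SRF and its partners are known to act close to the start of smooth muscle genes. They are Rgs5 at chr1:169655251-169655500 (plus strand), Smtn at chr11:3539293-3539542 (minus strand) and Synpo2 at chr3:123236150-123236399 (minus strand). The Smtn start of that table lies within the deposited gene. Capitals mark matches to the motifs named after them, and Rgs5 has none.
Rgs5: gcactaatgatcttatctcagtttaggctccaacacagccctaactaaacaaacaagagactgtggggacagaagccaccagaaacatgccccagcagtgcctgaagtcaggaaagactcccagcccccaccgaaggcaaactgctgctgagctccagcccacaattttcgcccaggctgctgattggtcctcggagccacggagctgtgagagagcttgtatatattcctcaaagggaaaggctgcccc
Smtn: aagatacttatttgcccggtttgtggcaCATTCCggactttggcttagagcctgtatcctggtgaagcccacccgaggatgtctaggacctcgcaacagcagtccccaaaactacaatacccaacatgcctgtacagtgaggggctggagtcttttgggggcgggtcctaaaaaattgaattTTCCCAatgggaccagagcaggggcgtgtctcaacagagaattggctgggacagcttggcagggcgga
Synpo2: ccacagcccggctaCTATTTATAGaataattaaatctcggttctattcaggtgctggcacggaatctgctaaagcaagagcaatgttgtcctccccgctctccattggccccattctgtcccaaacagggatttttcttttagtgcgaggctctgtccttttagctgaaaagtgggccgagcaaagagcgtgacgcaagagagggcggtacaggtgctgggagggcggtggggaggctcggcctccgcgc

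4 motifs were searched on both strands: the CArG box of SRF, the MEF2 box, CATTCC (the MCAT element of TEAD factors) and TGGGAA (the core of the Notch effector RBPJ). None of the 7 promoters held a CArG box, which 1.47% of 32851 promoters of this length held. Synpo2 held a MEF2 box 236 bases before the start, a motif in 2.92% of promoters. Smtn held CATTCC 222 bases before the start and TGGGAA, read on the other strand, at 68. Lmod1 also held CATTCC, on the other strand, 130 bases before its start. These short motifs occurred in 12.6% (CATTCC) and 21.6% (TGGGAA) of the 32851 promoters searched.

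Rgs5, a regulator of G protein signalling and one of the most used pericyte markers (ENSMUSG00000026678, chromosome 1, 169655501 to 169695813, plus strand), lay at 793, 774 and 772 CPM in GC1 to GC3 and at 1037, 893 and 879 CPM in PG1 to PG3. The ground controls were nearly equal, every partial gravity library was higher, and PG1 was the highest. The rise was 1.20-fold (log2 fold change 0.26, SE 0.058, adjusted p = 0.0089). Reads that cross exon junctions showed the same order of groups, at 53.6 ± 0.878 CPM on the ground and 67.4 ± 7.39 CPM in partial gravity (SD, n = 3 each), where 8.83% of genes with enough junction reads lay higher in every partial gravity library. With any 1 library left out, the log2 fold change stayed between 0.19 and 0.31. The call was lost without GC2 (adjusted p = 0.093).

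Pdgfrb, the receptor for platelet-derived growth factor B (ENSMUSG00000024620, chromosome 18, 61045150 to 61085061, plus strand), lay at 137, 129 and 142 CPM on the ground and 138, 123 and 127 CPM in partial gravity. The groups overlapped. Its log2 fold change was -0.069, with a 95% interval from -0.20 to 0.060 (adjusted p = 0.68). Its junction reads lay slightly lower in every partial gravity library, at 35.3 ± 0.889 CPM on the ground and 33.2 ± 0.735 CPM in partial gravity (SD, n = 3 each). Within each library, Rgs5 had 5.45 to 5.99 exon reads per Pdgfrb read on the ground and 6.91 to 7.53 in partial gravity. That ratio was 1.26-fold higher, without overlap (exact two-sided permutation test over libraries, p = 0.1, the smallest that 3 against 3 allows, and 0.1 after adjustment over the 5 ratios examined). The ratios were chosen after the values were seen.

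Notch3, the Notch receptor of mural cells (ENSMUSG00000038146, chromosome 17, 32120820 to 32166880, minus strand), lay at 82.3, 81.4 and 91.0 CPM on the ground and 89.8, 89.2 and 88.7 CPM in partial gravity. GC3 was the highest of the 6, so the groups overlapped. The log2 fold change was 0.072 (95% interval -0.066 to 0.21, adjusted p = 0.69). Cspg4, the proteoglycan NG2 (ENSMUSG00000032911, chromosome 9, 56865033 to 56899870, plus strand), lay at 67.5, 74.6 and 64.0 CPM on the ground and 59.3, 58.8 and 63.5 CPM in partial gravity. Every partial gravity library was below every ground control, with PG3 close to GC3. Its log2 fold change of -0.18 (95% interval -0.34 to -0.026) did not pass after adjustment (adjusted p = 0.23). Junction reads of Cspg4 overlapped, at 2.82 to 4.83 CPM on the ground and 2.61 to 5.09 CPM in partial gravity.

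Tagln, transgelin or SM22, an actin-binding protein of smooth muscle (ENSMUSG00000032085, chromosome 9, 45929619 to 45936058, minus strand), lay at 20.4, 22.3 and 20.9 CPM on the ground and 28.7, 26.7 and 31.2 CPM in partial gravity. All 3 partial gravity libraries were above all ground controls. The rise was 1.36-fold (log2 fold change 0.45, SE 0.10, adjusted p = 0.014), the largest change among the 10 genes. Junction reads lay at 8.33 ± 0.126 CPM on the ground and 9.80 ± 0.834 CPM in partial gravity, again without overlap. The call was lost without GC1 (adjusted p = 0.058), without PG3 (0.068) and with DESeq2 when it applied no filter on mean count (0.063). Of its exon reads 67.1% were placed uniquely. The counts tested, 130 to 260 per library, hold almost only those (129 to 259), so a fit on them alone could not differ. The call held when all exon reads, 187 to 378 per library, were counted. The last 108 bases of Tagln overlap Pcsk7 on the other strand, and the use of strand is not given in the sources used here.

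Myh11, the smooth muscle myosin heavy chain (ENSMUSG00000018830, chromosome 16, 14194527 to 14291408, minus strand), lay at 73.7, 77.6 and 83.8 CPM on the ground and 75.4, 88.6 and 90.5 CPM in partial gravity. PG1 lay among the ground controls. Its log2 fold change was 0.11 (95% interval -0.044 to 0.27, adjusted p = 0.53). Cnn1, calponin 1, which restrains the myosin motor on actin (ENSMUSG00000001349, chromosome 9, 22099216 to 22109630, plus strand), had 20 to 30 reads per ground library and 19 to 46 in partial gravity. Its CPM were 3.13, 3.24 and 4.39 against 5.21, 2.69 and 5.52. PG2 was the lowest of the 6, and the log2 fold change of 0.33 had a 95% interval from -0.22 to 0.89 (adjusted p = 0.62). Lmod1, a leiomodin that nucleates actin filaments in smooth muscle (ENSMUSG00000048096, chromosome 1, 135324807 to 135368065, plus strand), had 31 to 53 reads per library, at 4.85, 5.36 and 6.88 CPM on the ground and 6.58, 5.37 and 6.24 CPM in partial gravity. The groups overlapped, and its log2 fold change was 0.092 (95% interval -0.33 to 0.51, adjusted p = 0.89). At these read numbers, changes of the size seen in Rgs5 lie inside the intervals of Cnn1 and Lmod1.

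Smtn, smoothelin, a protein of the actin filaments of contractile smooth muscle (ENSMUSG00000020439, chromosome 11, 3517523 to 3540612, minus strand), lay at 117, 114 and 114 CPM on the ground and 82.6, 95.3 and 91.9 CPM in partial gravity. The groups were well apart, with PG1 the lowest. It was 1.28-fold lower (log2 fold change -0.35, SE 0.066, adjusted p = 0.0021). Junction reads of Smtn also lay lower, at 36.5 ± 1.06 CPM on the ground and 32.0 ± 2.47 CPM in partial gravity (SD, n = 3 each), as in 8.25% of genes with enough junction reads. Among the 24 alternatives, the GC3 regrouping alone cost it the call. Synpo2, synaptopodin 2 or myopodin, an actin-bundling protein of smooth muscle and of the Z-disc (ENSMUSG00000050315, chromosome 3, 123076519 to 123236149, minus strand), lay at 284, 279 and 267 CPM on the ground and 222, 248 and 228.5 CPM in partial gravity. Every partial gravity library was below every ground control. It was 1.19-fold lower (log2 fold change -0.25, SE 0.057, adjusted p = 0.012). Its few junction reads overlapped between the groups, at 8.20 to 10.8 CPM on the ground and 6.24 to 9.61 CPM in partial gravity. The call was lost without GC1 (adjusted p = 0.077), without GC2 (0.098) and with the trend on exon length removed (0.086). The exons of Synpo2 span 13138 bases, the most among the 10 genes.

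Per kilobase of exon, as RPKM deposited by the authors, Rgs5 stood far above the rest on the ground, at 78.1 ± 2.09 (SD, n = 3). Smtn (12.2 ± 0.272), Pdgfrb (11.3 ± 0.341) and Synpo2 (9.59 ± 0.466) followed. Tagln (7.46 ± 0.666), Notch3 (6.45 ± 0.241) and Myh11 (5.38 ± 0.273) came next. Cspg4 (2.62 ± 0.249), Lmod1 (0.656 ± 0.110) and Cnn1 (0.596 ± 0.105) were the lowest. Neighbours in this order did not overlap except Lmod1 and Cnn1, although Tagln and Notch3 nearly touched, at 6.74 and 6.72 RPKM. In partial gravity the RPKM of Tagln, 10.4 ± 0.781, lay within the spread of that of Smtn, 10.4 ± 0.677. RPKM is scaled to library totals and not by TMM, so it serves here for the order of genes and not for the comparison of groups.

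Intron reads, a second readout of the same libraries, come mainly from unspliced RNA. On the scale of the exon reads, 6.38% of 12636 genes passed edgeR on intron reads, 6.22% lower and 0.158% higher, and the median log2 fold change over all of them was -0.14. With intron reads scaled by themselves, that median was 0.0052, and 287 genes were lower and 40 higher. Of the 10 mural genes 9 had enough intron reads to be tested (Cnn1 did not), and the same 2 genes that fell in exon reads, Smtn and Synpo2, fell here. Intron reads of Smtn lay at 179, 162 and 177 CPM on the ground and 105, 115 and 117 CPM in partial gravity, without overlap. For Smtn this was 1.54-fold lower (log2 fold change -0.62, SE 0.091, adjusted p = 3.17e-04), or -0.48 on the log2 scale relative to the median of all genes. Intron reads of Synpo2 lay at 358, 306 and 283 CPM on the ground and 183, 203 and 182 CPM in partial gravity, also without overlap. For Synpo2 this was 1.67-fold lower (log2 fold change -0.74, SE 0.099, adjusted p = 1.29e-04), or -0.60 relative to that median. Groups lay apart in intron reads in 24.5% of genes. Both calls held without any 1 library, with the replicate number as a factor and with intron reads scaled by themselves.

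**Figure D2:**
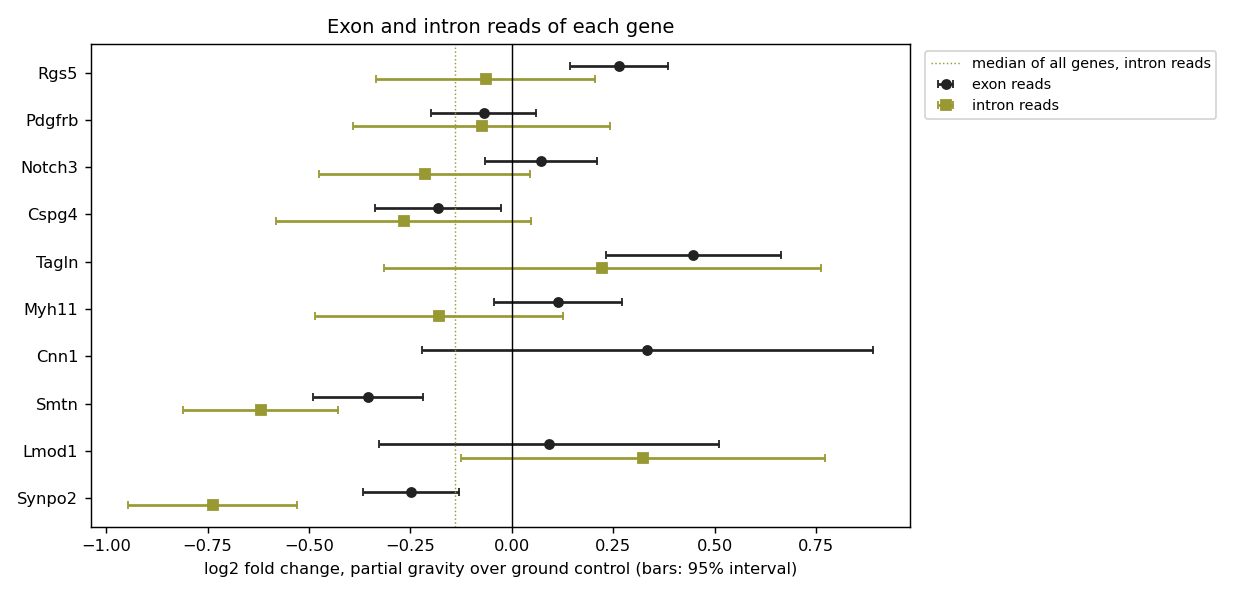
Log2 fold change of each gene (partial gravity over ground control) from exon reads (black) and intron reads (olive), with 95% intervals. Smtn and Synpo2 are lower in both readouts and further down in intron reads. Rgs5 is higher in exon reads, while its intron value of -0.065 has an interval that spans 0. The dotted line is the median of all genes in intron reads, and Cnn1 was not tested there.

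The 2 genes that rose did not pass in intron reads. Rgs5 had 57.3, 46.1 and 53.3 intron CPM on the ground and 59.9, 47.6 and 42.1 CPM in partial gravity. The groups overlapped, and the log2 fold change was -0.065 (95% interval -0.33 to 0.20, adjusted p = 0.84). Rgs5 thus had 13.8 to 16.8 exon reads per intron read on the ground and 17.3 to 20.9 in partial gravity. Over 9814 genes, 19.5% had that ratio higher in every partial gravity library and 1.65% had it lower. Its log2 difference was 0.34 for Rgs5, 0.48 for Synpo2 and 0.26 for Smtn, against a median of 0.14 over these genes (exact two-sided permutation p = 0.1 for each, the smallest possible, and 0.1 adjusted). Tagln had only 22 to 43 intron reads per library, and its log2 fold change in intron reads was 0.22 (95% interval -0.32 to 0.76). Pdgfrb, Notch3, Cspg4 and Myh11 had log2 fold changes in intron reads between -0.27 and -0.075, and Lmod1 had 0.32, with adjusted p between 0.345 and 0.84 in all 5. Intron reads made up 4.58% to 6.74% of the exon and intron reads of Rgs5, but 54.4% to 60.2% of those of Smtn and 44.3% to 55.7% of those of Synpo2.

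**Figure D3:**
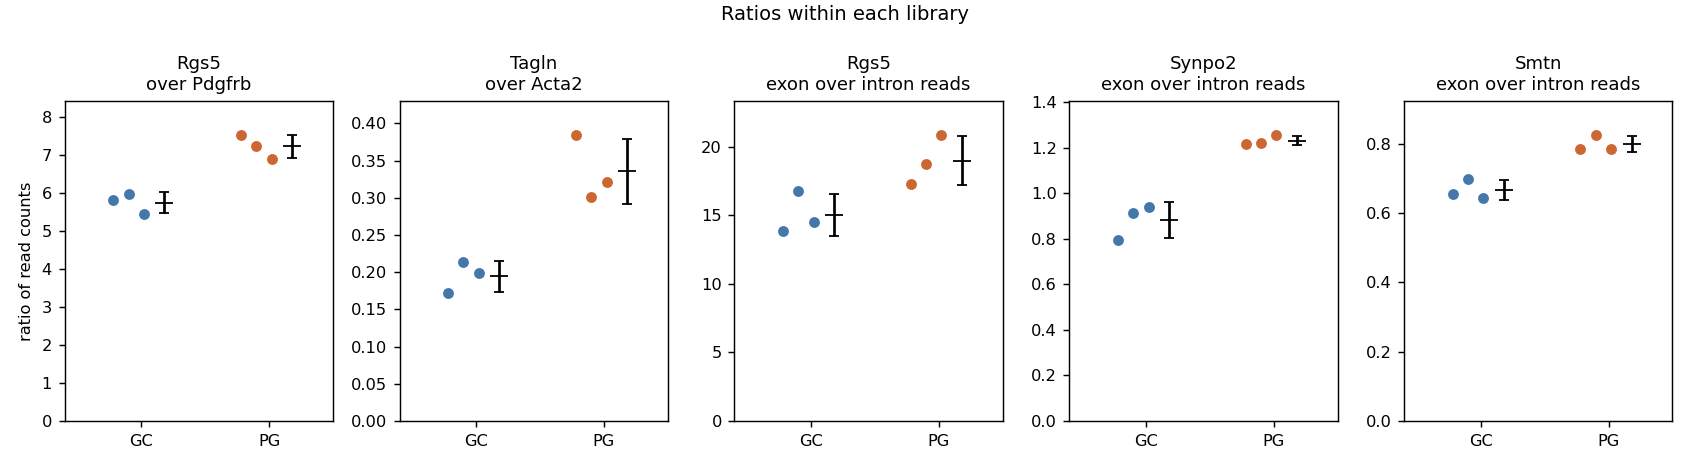
Ratios of read counts within each library (y axes from 0) in the 3 ground control (GC, blue) and 3 partial gravity (PG, orange) libraries, with the mean and SD in black. All 5 ratios, Rgs5 over Pdgfrb, Tagln over Acta2 and exon over intron reads of Rgs5, Synpo2 and Smtn, lie higher in every PG library.

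Among 20 other smooth muscle genes, not all of them of the contractile apparatus, 19 were tested, 2 fell and none rose. Their median log2 fold change was -0.052, with 8 positive and 11 negative. Here and in the lists that follow, a count is to be read against 2.21% lower and 1.56% higher over all tested genes. Acta2, smooth muscle actin, lay at 118, 104 and 106 CPM on the ground and 74.6, 88.9 and 97.1 CPM in partial gravity, where PG3 came closest to the ground controls. Its fall was 1.26-fold (log2 fold change -0.33, adjusted p = 0.031), and the call was lost when any library other than PG3 was left out (adjusted p up to 0.13). Myl9, the regulatory light chain of smooth muscle myosin, lay between 37.2 and 37.7 CPM on the ground and between 28.7 and 30.0 CPM in partial gravity. Its fall was 1.28-fold (log2 fold change -0.35, adjusted p = 0.022), and the call was lost when any library other than PG1 was left out (adjusted p up to 0.095), with library totals and with DESeq2. Tagln and Acta2 therefore lay on opposite sides: Tagln had 0.172 to 0.213 exon reads per Acta2 read on the ground and 0.300 to 0.384 in partial gravity, a ratio 1.72-fold higher (exact two-sided permutation p = 0.1, the smallest possible, and 0.1 adjusted). Mylk, the kinase that phosphorylates Myl9, lay at 0.049 in log2 fold change and Cald1, caldesmon, at 0.10, and neither passed (adjusted p = 0.82 and 0.54). Of the 19 genes, 7 had an unadjusted p under 0.05, against 15.6% of all tested genes. Tpm2 and Vcl lay below every ground control (-0.32 and -0.15, adjusted p = 0.081 and 0.16) and Des above (0.15, adjusted p = 0.11).

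**Figure D4:**
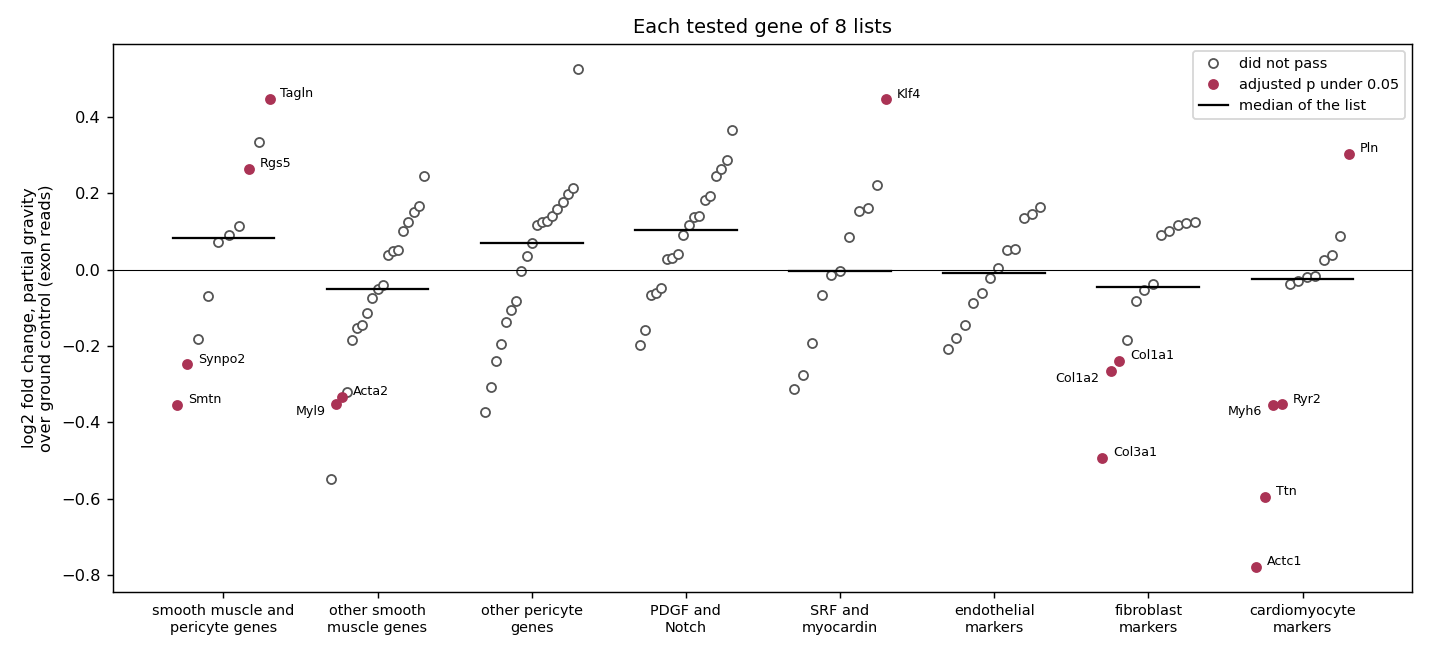
Log2 fold change (exon reads, partial gravity over ground control) of each tested gene in 8 lists, ordered within a list, with filled points at an adjusted p under 0.05 and a line at the median of each list. The smooth muscle and pericyte genes have 2 filled points above 0 and 2 below, and the other pericyte genes have none.

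Among 20 other pericyte genes, 19 were tested and 0 passed edgeR (5 at an unadjusted p under 0.05, against 15.6% of all tested genes). DESeq2, which gave an adjusted p to 11, and limma voom also called 0. The median log2 fold change of the 19 was 0.069, with 11 positive and 8 negative. Among the negative ones, Ednra lay at -0.31 and Vtn at -0.24 (adjusted p = 0.16 and 0.28). Kcnj8, the potassium channel subunit of cardiac pericytes, lay at 33.0, 35.1 and 39.0 CPM on the ground and 39.9, 39.02 and 40.6 CPM in partial gravity, with GC3 just below PG2. Its log2 fold change was 0.16 (95% interval -0.023 to 0.34, adjusted p = 0.41). Colec11, a collectin that marks pericytes, came nearest to passing: it lay between 12.0 and 12.4 CPM on the ground and at 18.9, 21.5 and 12.6 CPM in partial gravity (adjusted p = 0.0875), and passed without PG3 (adjusted p = 0.0034) and without a filter on low counts (0.0068).

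Next came genes of the pathways that act on mural cells. Of 18 tested genes of PDGF and Notch signalling, 0 passed edgeR (3 at an unadjusted p under 0.05), and limma voom and DESeq2, which gave an adjusted p to 10, called 0. The median log2 fold change was 0.10, with 13 positive and 5 negative. In partial gravity 2 of the genes lay above every ground control and 2 below. Pdgfb, the ligand of Pdgfrb, lay at 0.030 in log2 fold change (adjusted p = 0.92). Heyl, a target of Notch3, lay at 0.028 (adjusted p = 0.93). The smallest p was that of the receptor Notch2, at -0.20 and below every ground control (adjusted p = 0.115). The ligand gene Pdgfa lay at 0.36 and above every ground control (adjusted p = 0.127). Of 11 regulators around SRF and myocardin, 1 rose: Klf4, a repressor of contractile smooth muscle genes that endothelium and macrophages also make, at 1.36-fold (adjusted p = 0.0041), a call lost without PG2 (0.051). Srf lay at -0.013 (adjusted p = 0.97) and Myocd, which cardiomyocytes also make, at 0.22 (adjusted p = 0.067).

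Of 18 relatives of the 10 genes, 14 were tested, 2 rose and none fell. Of the 14, 10 had a negative log2 fold change (median -0.061) and 7 had an unadjusted p under 0.05. Smtnl2, a relative of Smtn, lay between 16.0 and 16.9 CPM on the ground and between 22.3 and 24.2 CPM in partial gravity, a 1.41-fold rise (adjusted p = 0.010). Its change was opposite in sign to that of Smtn. It kept the call without any 1 library, but not under DESeq2 with no filter on mean count (adjusted p = 0.052). Synpo2l, a relative of Synpo2, lay below every ground control in partial gravity and did not pass (-0.20, adjusted p = 0.064). Myh14, a nonmuscle myosin heavy chain related to Myh11, rose 1.33-fold (adjusted p = 0.015), a call lost without GC2 or PG2 (up to 0.089). The transgelin gene Tagln2, the calponin genes Cnn2 and Cnn3 and the leiomodin genes Lmod2 and Lmod3 had log2 fold changes between -0.18 and -0.014 and did not pass (adjusted p between 0.316 and 0.97). Rgs2 and Rgs3, relatives of Rgs5, lay at 0.32 and 0.17 with overlapping groups and did not pass either (adjusted p = 0.27 and 0.316).

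Markers of other cells moved beside these genes, and their part in the results was not tested. Cardiomyocyte markers, of which none was at 0, had 4 of 12 lower and 1 higher, and summed to 104189 to 105820 CPM on the ground and 77504 to 86558 CPM in partial gravity. Most of that sum was Ttn (39309 CPM on the ground and 25999 in partial gravity, log2 fold change -0.60) and Myh6 (31826 and 24907 CPM, -0.35), and Ryr2 lay at -0.35. The exon median of the 12 was -0.024, and Pln was the 1 that rose (0.30). In intron reads 8 of the 12 fell, with a median of -0.51, beside -0.62 for Smtn and -0.74 for Synpo2. Of the other smooth muscle genes tested in intron reads 3 of 17 fell (median -0.11), and of the other pericyte genes 1 of 17 (median -0.021). Over all genes tested in intron reads 6.22% fell, with a median of -0.14. Atrial markers had 2 of 8 higher with edgeR, Dkk3 and Sln (log2 fold change 0.45 and 0.39), while DESeq2 called 4. Bmp10, Myl7 and Myl4 lay below every ground control without passing edgeR (-0.45, -0.33 and -0.27, adjusted p = 0.26, 0.19 and 0.15). The median of the 8 was 0.018, none was at 0, and sums were 1710 to 1883 and 1619 to 1829 CPM. Fibroblast markers had 3 of 12 lower, led by Col3a1 and Col1a2 (-0.49 and -0.27), none at 0, and sums of 2789 to 2819 and 2632 to 2841 CPM. The median of these 12 was -0.046, with 5 positive and 7 negative. Gsn lay above every ground control (0.12, adjusted p = 0.24) and Dcn at 0.10 (adjusted p = 0.37), and neither passed. Of 12 endothelial markers 0 passed edgeR, DESeq2 or limma voom (5 at an unadjusted p under 0.05 with edgeR), none was at 0, and sums were 1930 to 2028 and 1816 to 2079 CPM. Their most abundant gene, Kdr, lay at -0.21 (adjusted p = 0.091). Kdr passed without PG3 (adjusted p = 0.048) and without a filter on low counts (0.010), and it fell in intron reads (-0.43, adjusted p = 0.047). Tek lay above every ground control (0.16, adjusted p = 0.23) and Flt1 at 0.14 (adjusted p = 0.28), and neither passed. The median of the 12 endothelial markers was -0.0089, with 6 positive and 6 negative.

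Mesothelial, Schwann and nerve, macrophage, adipocyte and red cell markers had 0 called by edgeR or limma voom, with 1 at an unadjusted p under 0.05 in edgeR, a macrophage marker. DESeq2 also called 0, but it gave an adjusted p to 7 macrophage, 4 red cell and 1 Schwann and nerve marker, and to 0 mesothelial and 0 adipocyte markers. That macrophage marker, Cd68, lay at -0.62 and below every ground control (adjusted p = 0.125). Of the macrophage markers 9 were negative and 1 positive (median -0.11), and all 6 red cell markers were negative (median -0.18). The mesothelial and the Schwann and nerve markers each had 3 positive and 1 negative (medians 0.077 and 0.091). The most abundant tested genes of the 5 lists, Wt1, Pmp22, Lyz2, Cfd and Hbb-bs, had log2 fold changes between -0.056 and 0.13. No lymphocyte marker had enough reads to be tested, at a sum of 1.86 to 5.92 CPM. Of 2 tested skeletal muscle markers, Acta1 fell (-0.96, adjusted p = 0.0039), limma voom called both, and 3 of the 9 on that list were at 0. The list summed to 1617 to 1700 CPM on the ground and 1419 to 1473 CPM in partial gravity. Nearly all of that sum was Ckm, at a mean of 1542 CPM on the ground and 1382 CPM in partial gravity (adjusted p = 0.082). Acta1 lay at 111 and 56.6 CPM. Tnnt3, Tnni2, Mylpf and Actn3 had too few reads to be tested, so the sum says little about skeletal muscle.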

How the data were processed

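RNA was measured in 3 ground control and 3 partial gravity heart libraries. The authors deposited 1 table. Per the file headers it holds whole read counts per gene (expression values, exon, exon-exon and intron reads) and RPKM. Per the submitters' processing notes the build is GRCm38 (mm10). The aligner, counter, annotation release and strand setting were left unnamed (not given in the sources used here). In all 49585 genes the deposited expression value is the sum of uniquely placed exon reads and exon-exon reads placed more than once. Deposited starts are counted from 0 (45128 genes match GENCODE M21 after adding 1) and are printed counted from 1. Groups follow the titles, which place GC3 in ground control.

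Expression values were filtered with filterByExpr (minimum count 10), normalized with TMM, and the robust quasi-likelihood test of edgeR 4.0.16 was run in R 4.3.3. Intron reads were tested alike on the exon scale. Each SE was obtained by dividing the log2 fold change by the square root of F. The biological coefficient of variation was 6.20%, and pairs of replicates differed by more than counting noise (chi-square per gene 2.09 to 5.39). Alternatives included DESeq2 1.42.0 and limma 3.58.1. The 10 genes, the lists, the motifs and the ratios were chosen with earlier results of these data known. Genes named beyond the 10 were up to 4 called members of each of 6 pathway lists and up to 2 of each of 11 cell type lists, or, where none was called, the smallest p (pathways) or the most abundant (cell types), with Acta2 and Kcnj8 in every case. The result of 1 pathway list is not reported here. Mylk, Cald1, Pdgfb, Heyl, Srf, Myocd and the relatives of the 10 genes without a call were named for their roles after their values were seen, as were Myh6, Pln, Bmp10, Myl7 and Myl4. Tpm2, Vcl, Des, Ednra, Vtn, Gsn, Dcn, Tek, Flt1 and the skeletal muscle markers other than Acta1 were also named after their values were seen. The same holds for Cd68 and Pdgfa.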

Additional observations from a re-analysis of the deposited data

How the results depend on the processing

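Of the 10 mural genes, 4 were called (2 higher, 2 lower). The count was 2 at an adjusted p under 0.01, 0 with GC3 grouped with partial gravity (edgeR; 4 at an unadjusted p under 0.05, other tools not run on that grouping), and 2 to 4 with 1 library left out. In intron reads it was 2, 0 with GC3 regrouped, and 2 in every fit with 1 library left out. Over all genes, 462 were called, against 212 at an adjusted p under 0.01, 307 with DESeq2, 286 with DESeq2 without independent filtering, 765 without a filter, 32 with GC3 regrouped, and 219 to 463 with 1 library left out (219 without GC2, 232 without PG2). In intron reads 806 genes were called, against 327 with the intron reads' own scaling (12.2% of them higher, against 2.48%), 6 with GC3 regrouped, and 450 to 950 with 1 library left out (450 without PG2, 451 without PG3, 510 without GC2). Scaling by library totals made 59.9% of the exon calls higher, against 41.3%. The replicate block gave 545 calls and the same 4 mural genes (3 with the exon length trend removed too), and 765 calls in intron reads. Among the other genes named, Colec11 passed with it (adjusted p = 0.030). Deviations of same-numbered libraries correlated at 0.0026, -0.054 and 0.048, and those of other pairs at -0.073 to 0.077. With 3 libraries per group, these values do not decide whether same-numbered libraries were handled together. No called gene of the 10 changed direction under any alternative tried. Depth limited Cnn1 and Lmod1, at 19 to 53 reads per library.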
